A study of Mus musculus with 12 samples.

Results

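The genes described here are the Hox genes and 6 related homeobox families, Meis, Pbx, Dlx, Msx, Lhx and Prrx, on 12 mouse MG_U74Av2 oligonucleotide arrays. A gene was taken when a probe set was annotated with its symbol alone, when the symbol began with one of these family names followed by a digit, and when it named a coding gene. Where a gene had several probe sets, the one with the highest mean signal over the 12 arrays was used. The rule found 53 genes out of 8251 genes with such a probe set. Of these, 35 passed the filter on low signal (a signal above 15.02, the 40th percentile of all signals, on at least 3 of the 12 arrays), among 6277 genes that did.

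The cells were 2C5/7 cells, a line derived from mouse embryonic fibroblasts that lacks functional myoD and myf5 genes in all 4 groups, controls included. Each group was infected with a retrovirus whose viral LTR promoter drove one mRNA for a myogenic factor and, through an IRES, for hrGFP, a green fluorescent protein. The factor was MyoD, Myf5 or myogenin, and the control virus carried hrGFP alone, with 3 arrays per group. Cells were grown in DMEM with 10% fetal calf serum and sorted for fluorescence as a mixed, non-clonal population, with an estimated purity of 75 to 85%. No time after infection is given in the sources used here, and nothing says whether the arrays of a group came from separate cultures, so p-values measure the spread between arrays, which may be technical. In such mixed populations, fewer cells that express a gene and less RNA per cell cannot be told apart.

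Hox proteins are transcription factors that give cells their position along the body axis and the limbs. Their genes lie in clusters a, b, c and d, and genes with a low paralogue number, at the 3′ end of a cluster, are used nearer the head than those with a high number. Pbx and Meis proteins bind DNA together with Hox proteins, and in mouse a Pbx and Meis complex marks the promoter of the myogenin gene, where it recruits MyoD. Msx, Dlx, Lhx and Prrx proteins pattern the limb, face and brain, and Prrx1 and Prrx2 are typical of limb and facial mesenchyme.

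The groups are named by the labels, and the probe sets of the 3 factors did not all follow them. The Myod1 probe set read 41.3 to 54.1 on the arrays labelled MyoD and 38.4 to 58.6 on those labelled hrGFP. It read 42.8 to 66.8 with Myf5 and 84.4 to 100.5 with myogenin, so each array labelled myogenin was above every other. The Myf5 probe set read 27.4 to 125.0 with Myf5 and 27.1 to 143.0 with hrGFP. The Myog probe set read 89.2 to 122.3 with myogenin, 165.3 to 443.0 with MyoD and 24.2 to 53.1 with hrGFP. The labels do not say which part of each mRNA the viruses carried, so whether these probe sets could read the viral transcripts was not tested. Skeletal muscle markers separated the MyoD arrays: their summed signal was 2841 to 3716 with MyoD, 122 to 218 with hrGFP, 203 to 631 with Myf5 and 507 to 1374 with myogenin, and 10 of the 12 tested were higher with MyoD than with hrGFP. Fibroblast markers were read on all arrays, 14 of 15 above the filter, and none was called in a comparison with hrGFP. Epithelial, endothelial, neural and leukocyte markers were mostly below the filter: 6 of 8, 6 of 7, 5 of 8 and 4 of 7.

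The arrays labelled MyoD 5 and hrGFP 5, after the replicate numbers in the titles, stood apart. Their ratios of 3′ to 5′ signal were 25.7 and 37.6 for actin and 32.4 and 33.0 for Gapdh, where the other 10 arrays lay between 0.968 and 1.11 for actin and between 0.786 and 1.03 for Gapdh. They correlated at 0.958 with each other and at 0.769 to 0.836 with the rest. The main results that rest on them are also given without them. The 3 myogenin arrays formed an array lot and hybridization day of their own, so group and batch cannot be told apart for myogenin. The other groups shared 2 such batches, replicates 3 and 4 in one and replicate 5 in the other. The signals printed are the deposited ones, before normalization, and the median signal of an array ranged from 16.2 to 35.9.

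Most Hox genes on the array from the front and middle of the clusters passed the filter, and few from the far end did. Of 23 Hox genes with paralogue numbers 1 to 9 on the array, 22 passed the filter, and of 8 with numbers 10 to 13, 1 passed. Of all 8251 genes, 6277 had a probe set that passed. All 9 Hoxb genes and all 5 Hoxc genes on the array passed, as did 7 of 10 Hoxa genes and 2 of 7 Hoxd genes. Hoxc10, Hoxc11, Hoxc12 and Hoxc13 had no probe set of their own, so the Hoxc count does not reach the far end. The Hoxa genes below the filter were Hoxa10, Hoxa11 and Hoxa13, which pattern the distal limb and the reproductive tract, and the Hoxd genes below it were Hoxd1, Hoxd10, Hoxd11, Hoxd12 and Hoxd13. The exception at the far end was Hoxb13, known from the tail and the prostate, whose signals ran from 5.01 to 25.5 and overlapped in all groups. A probe set below the filter has no reliable level here, and probe sets differ in their affinity, so these counts say which genes were measurable and not how much RNA each gene made.

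Among the related families, Pbx2, Pbx3, Prrx1 and Prrx2 passed the filter, as did Meis3, Dlx1, Dlx2, Msx1, Msx3, Lhx1, Lhx6 and Lhx8. Meis1, Meis2, Dlx3, Dlx4, Dlx5, Dlx6, Msx2, Lhx3, Lhx5 and Lhx9 did not. Of the 18 genes below the filter, 6 exceeded it on at least 1 array, the highest being Dlx4 at 49.0 on the array myogenin 3 and at most 22.1 on the others. The genes nearest the filter were Lhx3 and Meis1, whose third-highest signals were 14.8 and 14.3, and Meis3 and Hoxa9, at 16.0 and 16.8.

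Forced expression of MyoD was followed by no called change in any of the 35 measured genes, against hrGFP. Changes were called at an adjusted p under 0.05, with limma's moderated test over 8485 probe sets, of which 35, or 0.412%, were called in this comparison, all of them higher with MyoD. At an unadjusted p under 0.05 the count of homeobox genes was still 0, where 3.55% of all probe sets passed. The median difference of the 35 genes was −0.07 on the log2 scale, against −0.01 for all probe sets, and their differences lay between −0.63 and 0.72. In 30 of the 35 the difference was under 0.5 in size, and 88.7% of all probe sets were as close. The array values of the groups did not overlap for Hoxa3, which was higher, and for Hoxa5, Hoxa9 and Hoxc4, which were lower, and 5.28% of all probe sets did not overlap.

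The largest differences with MyoD came with a wide spread of the control arrays, whose SD on the log2 scale was 0.93 for Hoxd9 and 1.10 for Hoxc5. Hoxd9, a thoracic and limb gene, read 9.3, 6.3 and 6.1 with MyoD and 44.0, 9.0 and 6.0 with hrGFP. In deposited signal array hrGFP 3 was high, and the other control arrays, hrGFP 5 among them, matched MyoD. After normalization hrGFP 4, at 4.28, was above the MyoD arrays, at 3.99, 3.78 and 3.69. The Hoxd9 difference was −0.63 ± 0.45 (SE, 3 arrays per group), and −0.97 without MyoD 5 and hrGFP 5. Hoxc5, a neck and upper thorax gene, read 52.5, 28.1 and 27.6 with MyoD and 44.7, 20.4 and 4.9 with hrGFP, where the low value was that of hrGFP 5. Its difference was 0.72 ± 0.46, and 0.27 without MyoD 5 and hrGFP 5. Msx3, a gene of the dorsal neural tube, read 26.2, 24.8 and 33.1 with MyoD and 34.9, 5.5 and 17.7 with hrGFP, a difference of 0.69 ± 0.33.

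Hoxa9 and Hoxc4 were lower on every MyoD array than on any control array, after normalization. Hoxa9, which has roles in limb and blood development, read 3.7, 9.8 and 12.1 with MyoD and 16.8, 12.7 and 16.9 with hrGFP, a difference of −0.61 ± 0.30 at an unadjusted p of 0.0677. Hoxc4, a neck gene, read 20.8, 10.1 and 15.4 with MyoD and 32.3, 17.9 and 29.0 with hrGFP, a difference of −0.60 ± 0.30 at an unadjusted p of 0.0719. Neither passed the test after adjustment, where limma's adjusted p was 0.9998 for both. Data simulated for this comparison from the arrays' own spread were called in 17.9% of probe sets shifted by 1 on the log2 scale, in 64.2% of those shifted by 2 and in 98.5% of those shifted by 4, so a change of 1 would mostly not have been called at this number of arrays.

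**Figure D1:**
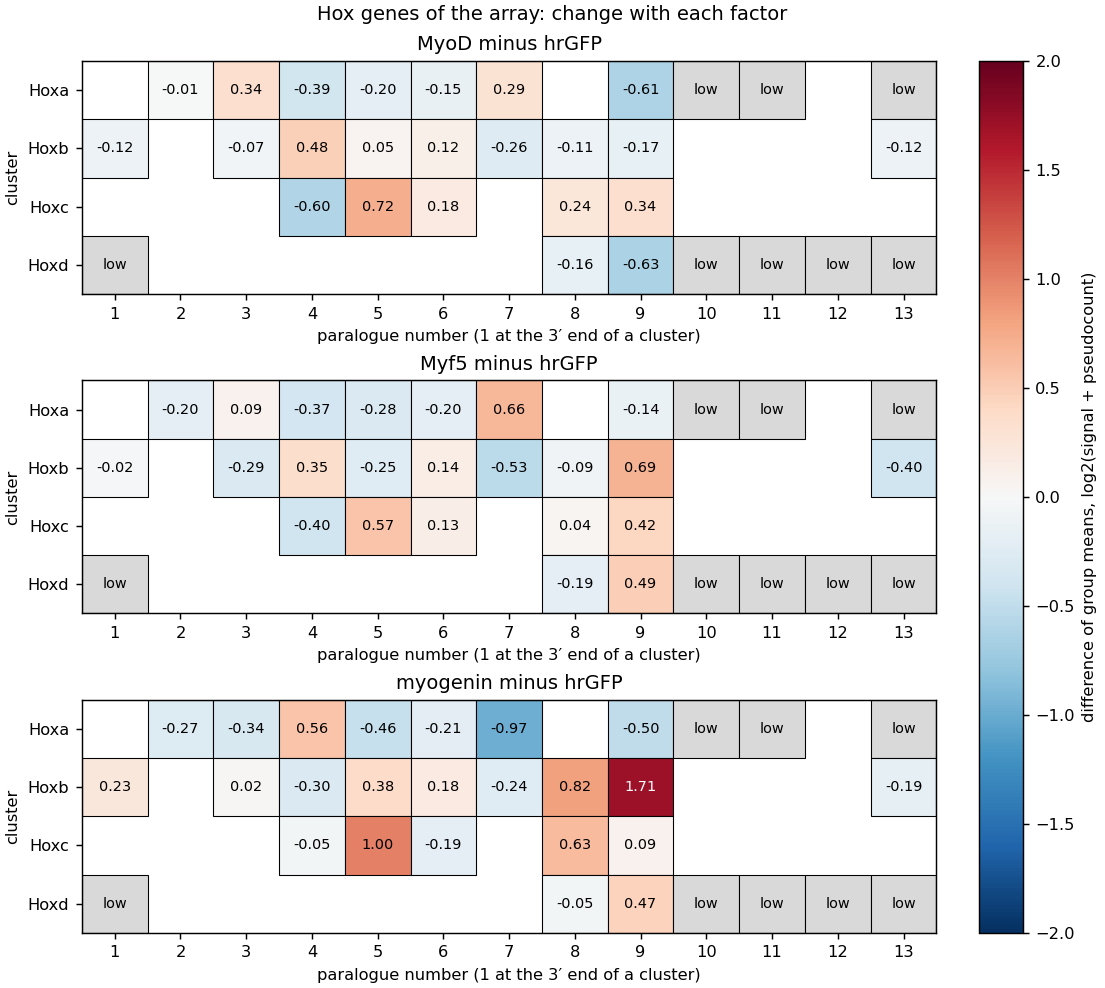
Differences between each factor and hrGFP for the Hox genes of the array, by cluster (rows) and paralogue number (columns), in log2(signal + pseudocount). Grey cells marked low did not pass the filter and empty cells had no probe set of their own; the strongest cell is Hoxb9 with myogenin at 1.71.

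Myf5 was likewise followed by no called change in the 35 genes, where 1 of 8485 probe sets, or 0.0118%, was called. Hoxb9 alone passed an unadjusted p under 0.05, and 3.01% of all probe sets did. The median difference was 0.04, against −0.03 for all probe sets, with a range of −0.53 to 1.41. The groups did not overlap for Prrx2, which was higher, and for Hoxb7, Hoxc4 and Hoxd8, which were lower, where 8.66% of all probe sets did not overlap.

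Prrx2, a paired-related gene of limb and facial mesenchyme, gave the largest difference with Myf5, and that difference rested on array hrGFP 5. It read 409, 200 and 487 with Myf5, 305, 139 and 24.99 with hrGFP, 342, 214 and 48.5 with MyoD, and 326, 360 and 253 with myogenin. The lowest values were those of hrGFP 5 and MyoD 5. The difference between Myf5 and hrGFP was 1.41 ± 0.80 with all arrays, 1.39 without MyoD 5, and 0.36 without hrGFP 5 or without both. That between myogenin and hrGFP was 1.29 ± 0.80, and 0.25 without both.

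Hoxb7 read 41.6, 28.1 and 47.1 with Myf5 and 59.6, 32.6 and 72.3 with hrGFP. After normalization each Myf5 array was below each control array, with a difference of −0.53 ± 0.26 (limma adjusted p = 0.973). Hoxa7 read 31.2, 53.0 and 44.3 with Myf5 and 32.2, 10.2 and 33.8 with hrGFP, a difference of 0.66 ± 0.46. In Hoxa7 the groups overlapped, and the low control value was that of hrGFP 4. Hoxb13 differed by −0.40 ± 0.47 with Myf5, within the spread of both groups.

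**Figure D2:**
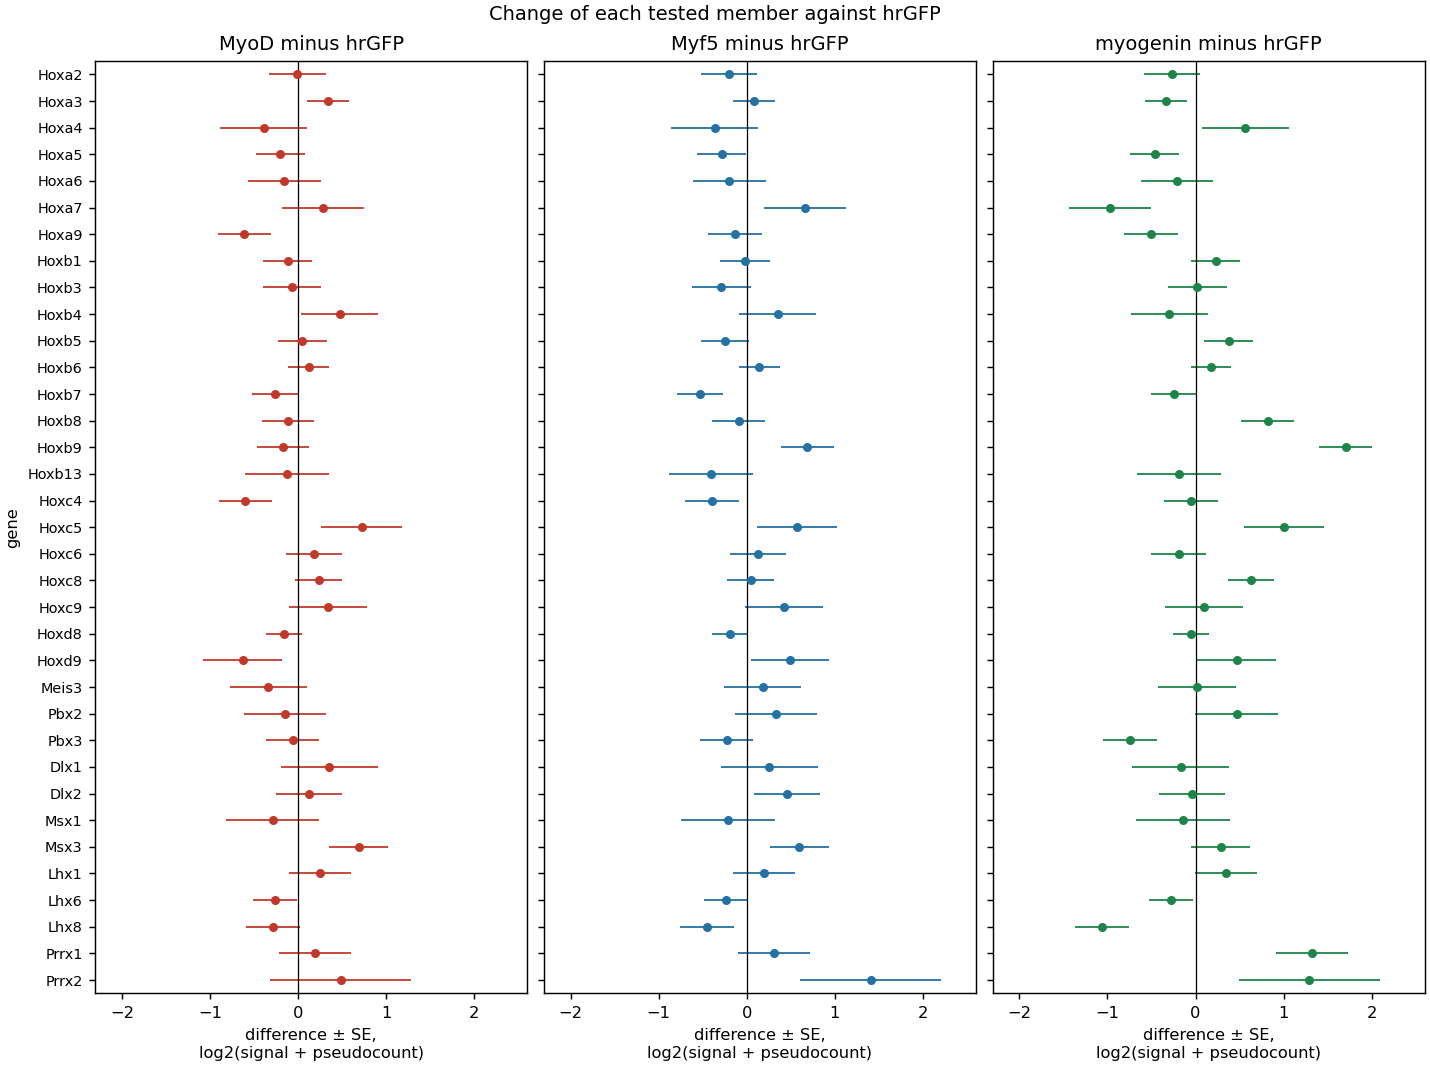
Difference from hrGFP (log2, with pseudocount) for each of the 35 genes above the filter, in 1 panel per factor; points are differences of means of 3 arrays and bars are limma standard errors. Most points lie within 0.5 of 0, and Hoxb9 with myogenin, at 1.71, has the largest difference relative to its error.

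Myogenin was followed by no called change in the 35 genes against hrGFP, where 11 of 8485 probe sets, or 0.13%, were called. The median size of the differences was 0.30 in the 35 genes and 0.33 in all probe sets, where it was 0.25 and 0.19 with MyoD and 0.28 and 0.23 with Myf5. At an unadjusted p under 0.05, 7 of the 35 genes passed: Hoxb8, Hoxb9, Hoxc5, Hoxc8 and Prrx1 were higher, and Pbx3 and Lhx8 lower. Of all probe sets 11.5% passed, 5.47% higher and 6.02% lower. The median difference was −0.04, against −0.01 for all probe sets, with a range of −1.06 to 1.71. The groups did not overlap for 5 genes that were higher and 4 that were lower, where 18.1% of all probe sets did not overlap, 8.13% higher and 9.92% lower.

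With all arrays, and by the 1 probe set used for each gene, Hoxb9 was the 1 gene of the 35 called in any comparison: it was lower with MyoD than with myogenin. Hoxb9 acts in the thorax, where it helps to shape the ribs, and in the mammary gland. It read 37.3, 31.3 and 32.1 with myogenin, 5.2, 2.6 and 2.1 with MyoD, 7.8, 10.4 and 16.5 with Myf5, and 9.3, 3.2 and 2.5 with hrGFP. The myogenin arrays were above all the others, the Myf5 arrays were above those of MyoD, and the hrGFP arrays overlapped with both. The means of the normalized log2 values were 5.16 ± 0.21 (SD, n = 3) with myogenin, 4.14 ± 0.28 with Myf5, 3.29 ± 0.24 with MyoD and 3.46 ± 0.37 with hrGFP.

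The Hoxb9 difference, MyoD minus myogenin, was −1.88 ± 0.30 (SE; limma adjusted p = 0.0235), and 35 of all probe sets, or 0.412%, were called in that comparison, 0.153% lower with MyoD. Against hrGFP, myogenin differed by 1.71 ± 0.30 (adjusted p = 0.0530; 1.53 and 0.0670 without MyoD 5 and hrGFP 5) and Myf5 by 0.69 ± 0.30 (adjusted p = 0.973, unadjusted p = 0.0403). The 4 groups together differed by the moderated F test (adjusted p = 0.0374), which called 36 probe sets, or 0.424%, and Hoxb9 was the 1 homeobox gene among them. Without adjustment, Hoxa7, Hoxb8, Lhx8 and Prrx1 also passed a p under 0.05 by the F test, as did 8.56% of all probe sets. Hoxb9 passed the filter through the myogenin arrays and array Myf5 5 alone. It was thus tested only through groups where it was high, and its calls are no support apart from these signals. Without a filter, limma's adjusted p for MyoD against myogenin was 0.0132. With MyoD and hrGFP the signals of Hoxb9 were below 15.02, where the pseudocount of 6.33 shrinks a difference. Without a pseudocount the difference from myogenin was −3.18 with MyoD, at an adjusted p of 0.0725.

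The MyoD against myogenin call for Hoxb9 held without arrays MyoD 5 and hrGFP 5 (−1.77, limma adjusted p = 0.0419), and was lost when any one of 6 arrays was left out: MyoD 4, MyoD 5, Myf5 5 or any of the myogenin arrays. The F test called it in 1 of the 12 fits that left out an array, the one without hrGFP 3. In the same comparison 6 of the 12 muscle markers were called higher with MyoD, and 1 of the 14 fibroblast markers, the collagen gene Col1a1, was called lower (adjusted p = 0.0274). The summed signal of the fibroblast markers was 6385 to 14294 with MyoD, 10613 to 13417 with myogenin and 6266 to 17224 with hrGFP. The summed signal of the 7 leukocyte markers on the array was 278 to 299.5 with myogenin, above the 136 to 188 with MyoD, 143 to 195 with Myf5 and 163 to 240 with hrGFP, and of the 3 that passed the filter, 0 were called. The leukocyte markers Ptprc, Lyz2, Itgam and Cd3e were below the filter. The part of these markers in the Hoxb9 and Hoxb8 results was not tested.

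Hoxb8, the neighbour of Hoxb9 in the cluster, was also highest on the myogenin arrays by its brighter probe set, the one used here. Hoxb8 acts in the spinal cord and in blood precursors. Its brighter probe set read 89.0, 111 and 97.0 with myogenin, 46.3, 43.7 and 33.8 with MyoD, 48.5, 38.6 and 54.7 with Myf5, and 61.1, 45.5 and 30.3 with hrGFP. The myogenin arrays did not overlap with any other group. The difference between myogenin and hrGFP was 0.82 ± 0.30 (limma adjusted p = 0.338), and 0.47 without MyoD 5 and hrGFP 5.

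The dimmer Hoxb8 probe set read 27.5, 24.8 and 51.4 with myogenin, 2.9, 1.3 and 2.9 with MyoD, 5.7, 2.2 and 3.2 with Myf5, and 5.0, 2.4 and 13.4 with hrGFP. Only the myogenin arrays were above the filter's 15.02. This probe set was thus tested only through the group where it was high, and its test is no separate support for Hoxb8. The difference between MyoD and myogenin was −2.01 ± 0.37 (limma adjusted p = 0.0480), which became 0.0509 without MyoD 5 and hrGFP 5 and was called in 1 of 12 fits without an array. The difference between myogenin and hrGFP was 1.498 ± 0.37 (adjusted p = 0.169).

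A probe set annotated with both Hoxb8 and Hoxb7 falls outside the rule and was picked after its values were seen. Its tests are therefore no separate support. Leaving out single arrays does not part the myogenin group from its batch. It read 213, 161 and 190 with myogenin, 36.2, 33.8 and 39.0 with MyoD, 44.9, 23.6 and 81.3 with Myf5, and 40.6, 27.1 and 39.6 with hrGFP. Every myogenin array was above every other array. The difference between myogenin and hrGFP was 2.08 ± 0.25 (limma adjusted p = 0.00509), called in 12 of 12 fits that left out an array, and that between MyoD and myogenin was −2.05 (adjusted p = 0.00585), called in 11 of 12. Myf5 was lower than myogenin by −1.94 (adjusted p = 0.0173), called in 8 of 12. The probe set of Hoxb7 alone differed by −0.24 ± 0.26 between myogenin and hrGFP, with overlapping groups, so the shared probe set and that of Hoxb7 did not move together.

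**Figure D3:**
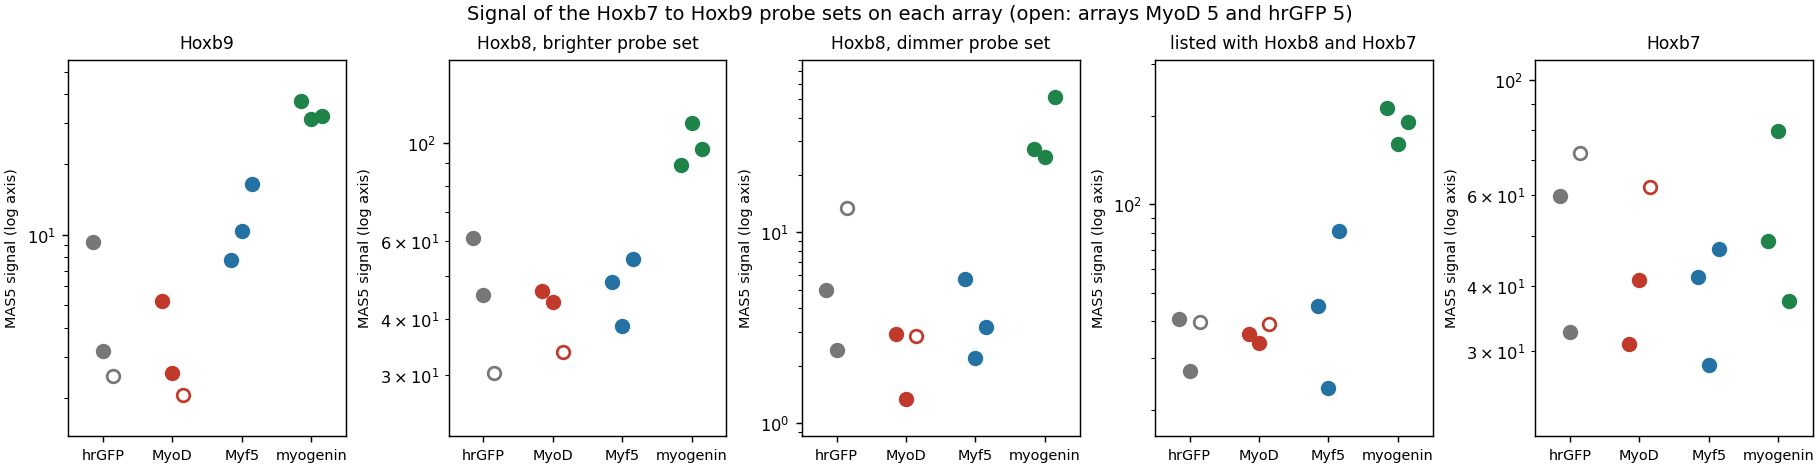
Deposited signal on each of the 12 arrays (log axis) for the probe sets of Hoxb9, Hoxb8, Hoxb8 with Hoxb7, and Hoxb7, by group, with arrays MyoD 5 and hrGFP 5 open. In the first 4 panels the 3 myogenin arrays lie above all others, and in the Hoxb7 panel the groups overlap.

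In the RefSeq gene table, Hoxb13, Hoxb9, Hoxb8, Hoxb7, Hoxb6 and Hoxb5 follow each other on mouse chromosome 11. With myogenin, the differences from hrGFP along that row were −0.19, 1.71, 0.82, −0.24, 0.18 and 0.38. Further along the row, Hoxb3, Hoxb4 and Hoxb1 differed by 0.02, −0.30 and 0.23. With all arrays the larger differences were those of Hoxb9 and Hoxb8, which are neighbours. Without MyoD 5 and hrGFP 5 these were 1.53 and 0.47. Genes of the same paralogue group in other clusters did not follow one direction: Hoxa9, Hoxc9 and Hoxd9 differed by −0.50, 0.09 and 0.47, and Hoxc8 and Hoxd8 by 0.63 and −0.05. None of these was called.

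The promoter of Hoxb8 is shown because its brighter probe set was highest with myogenin, and that of Hoxa7 because it was lowest there after normalization. That of Prrx1 is shown because it was called between Myf5 and myogenin when arrays MyoD 5 and hrGFP 5 were left out. The sequences are from RefSeq, mouse build GRCm38.p6, and run from 250 bases before the gene's start to 50 bases after it. They are at chr11:96281655-96281954 on the plus strand for Hoxb8, chr6:52218524-52218823 on the minus strand for Hoxa7 and chr1:163313601-163313900 on the minus strand for Prrx1. Capitals mark TAATTA, a core sequence that homeodomain proteins bind.
Hoxb8: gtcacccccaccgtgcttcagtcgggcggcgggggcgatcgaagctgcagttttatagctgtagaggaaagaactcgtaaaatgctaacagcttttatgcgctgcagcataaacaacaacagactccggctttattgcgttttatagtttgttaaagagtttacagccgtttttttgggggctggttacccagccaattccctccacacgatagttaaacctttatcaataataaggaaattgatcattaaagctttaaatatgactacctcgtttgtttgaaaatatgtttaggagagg
Hoxa7: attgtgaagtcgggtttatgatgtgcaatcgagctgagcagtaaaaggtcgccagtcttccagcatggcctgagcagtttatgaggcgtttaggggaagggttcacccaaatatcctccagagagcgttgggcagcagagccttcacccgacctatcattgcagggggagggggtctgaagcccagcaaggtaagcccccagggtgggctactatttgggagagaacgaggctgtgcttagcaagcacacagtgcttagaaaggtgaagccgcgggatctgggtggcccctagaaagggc
Prrx1: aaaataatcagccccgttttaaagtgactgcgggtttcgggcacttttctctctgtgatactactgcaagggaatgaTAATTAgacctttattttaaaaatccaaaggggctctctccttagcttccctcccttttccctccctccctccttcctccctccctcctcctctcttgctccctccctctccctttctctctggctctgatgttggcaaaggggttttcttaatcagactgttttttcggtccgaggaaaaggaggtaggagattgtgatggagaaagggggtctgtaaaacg
The searched motifs were CANNTG, the E-box that myogenic factors bind, and TAATTA, both on both strands. None of these windows holds CANNTG, and the Prrx1 window holds TAATTA once. Of the 35 genes above the filter, 23 had a window in the RefSeq table. Hoxb9, the gene called with all arrays, had none, nor had Hoxb7, Hoxc8, Pbx3 and Hoxa4. Their promoters were not searched. CANNTG was present in 13 of the 23, or 56.5%, and in 72.3% of all 32851 windows. CAGCTG, the form of CANNTG that MyoD prefers and a subset of it, was in Hoxa3, Hoxa5, Hoxa6 and Lhx6, or 17.4%, and in 16.3% of all windows. TAATTA was in Prrx1 alone, or 4.35%, and in 5.29% of all windows.

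Hoxa7, a thoracic gene, was after normalization lowest on the myogenin arrays and highest, on average, with Myf5. It read 11.1, 12.8 and 8.1 with myogenin, 31.2, 53.0 and 44.3 with Myf5, 13.6, 20.9 and 78.2 with MyoD, and 32.2, 10.2 and 33.8 with hrGFP. The myogenin and Myf5 arrays did not overlap. Myf5 exceeded myogenin by 1.63 (limma adjusted p = 0.328), in a comparison where 3 probe sets, or 0.0354%, were called, and none of the 35 genes was. At an unadjusted p under 0.05, 6 of the 35 passed, beside 9.18% of all probe sets. Hoxa7 differed by −0.97 ± 0.46 between myogenin and hrGFP (adjusted p = 0.447).

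Prrx1, the other paired-related gene of limb mesenchyme, was highest on the myogenin arrays. It read 194, 234 and 187 with myogenin, 103, 67.0 and 142 with Myf5, 137, 80.3 and 44.2 with MyoD, and 124, 60.3 and 42.0 with hrGFP. The myogenin arrays were above every other array, and the lowest values were those of hrGFP 5 and MyoD 5. The difference between myogenin and hrGFP was 1.33 ± 0.41 (limma adjusted p = 0.263), and 0.86 (adjusted p = 0.0776) without MyoD 5 and hrGFP 5. Without those arrays, Prrx1 was called lower with Myf5 than with myogenin, by −0.98 (adjusted p = 0.0369). With all arrays the difference was −1.02 (adjusted p = 0.466). Neither array left out belongs to the groups compared. In that fit 0.519% of all probe sets were called between Myf5 and myogenin, against 0.0354% with all arrays.

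The Pbx and Meis genes, whose proteins bind beside Hox proteins, gave no called difference. Pbx3 read 79.5, 86.7 and 57.4 with myogenin, 104, 66.5 and 154 with Myf5, 83.4, 76.9 and 200 with MyoD, and 142, 45.1 and 223 with hrGFP. Its highest values were those of hrGFP 5 and MyoD 5, and its difference between myogenin and hrGFP was −0.74 ± 0.30 with all arrays and −0.47 without those arrays. The other Pbx3 probe sets differed by −0.26 and −0.49. Pbx2 ran from 2.6 to 24.4 and Meis3 from 1.8 to 30.0 over the arrays, both around the filter. The Meis3 differences from hrGFP were −0.33 for MyoD, 0.18 for Myf5 and 0.02 for myogenin, each within its standard error of 0.44.

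Lhx8, a LIM homeobox gene of the basal forebrain, palate and teeth, had the largest fall in value with myogenin. It read 20.8, 39.4 and 24.7 with myogenin, 42.9, 25.4 and 59.0 with Myf5, 31.0, 34.4 and 68.0 with MyoD, and 56.5, 24.8 and 102 with hrGFP. After normalization the myogenin and hrGFP arrays did not overlap, and hrGFP 5 and MyoD 5 were the highest. The difference was −1.06 ± 0.31 (limma adjusted p = 0.240), and −0.75 without MyoD 5 and hrGFP 5. Lhx6 ran from 20.6 to 46.5 and Lhx1 from 6.9 to 37.5, and neither differed from hrGFP by more than 0.34 in size with any factor.

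Dlx2, a gene of the jaw and forebrain, read 112, 30.4 and 144 with Myf5 and 79.4, 20.8 and 74.1 with hrGFP, a difference of 0.46 ± 0.38. Its low values were those of replicate 4 in both groups. Msx1, which in mouse myoblasts holds back MyoD and differentiation, ran from 7.9 to 43.8 and gave no called difference from hrGFP, at −0.29 for MyoD, −0.21 for Myf5 and −0.14 for myogenin.

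Hoxc8, a lower thoracic gene, read 41.8, 30.2 and 27.1 with myogenin and 16.4, 9.4 and 21.2 with hrGFP, a difference of 0.63 ± 0.26 (limma adjusted p = 0.390). The groups did not overlap. Hoxc5 read 35.8, 76.3 and 56.1 with myogenin, and its difference from hrGFP was 1.005 ± 0.46 with all arrays and 0.37 without MyoD 5 and hrGFP 5.

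**Figure D4:**
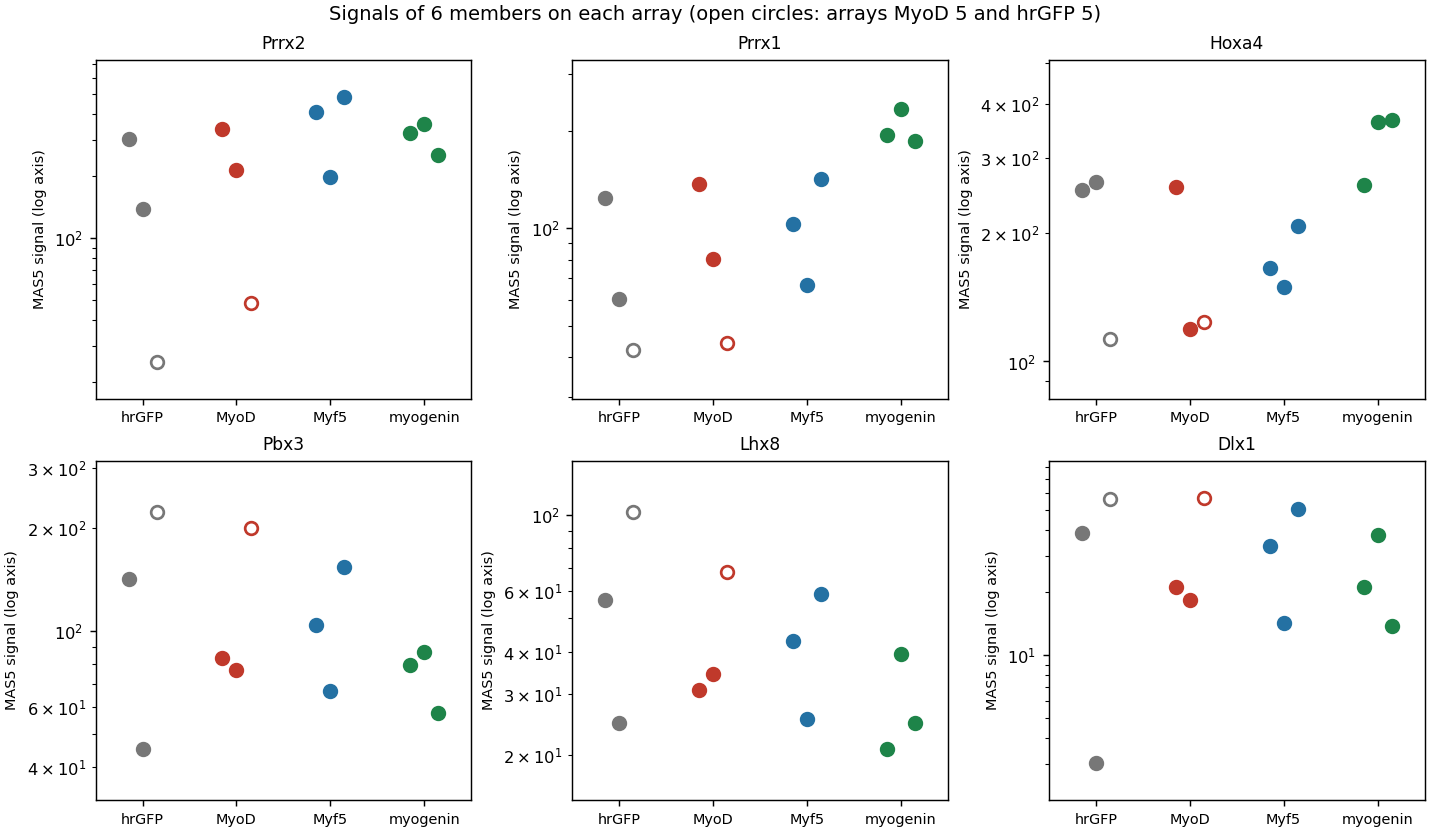
Deposited signal of Prrx2, Prrx1, Hoxa4, Pbx3, Lhx8 and Dlx1 on each array (log axis), by group, with arrays MyoD 5 and hrGFP 5 as open circles. For Prrx1 and Prrx2 the open circles are the lowest points of their groups, and for Pbx3, Lhx8 and Dlx1 they are the highest.

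The arrays MyoD 5 and hrGFP 5 were set apart in 13 of the 35 genes, after normalization. Both were below the other 10 arrays for Hoxa4, Hoxa6, Hoxb1, Hoxb8, Hoxb9, Hoxd9, Meis3, Prrx1 and Prrx2, and both were above them for Dlx1, Hoxa2, Lhx8 and Pbx3. Of all probe sets 18.3% were below and 25.2% above in this way. Without these arrays 0 homeobox genes were called for MyoD, Myf5 or myogenin against hrGFP, where 0.542%, 0.0236% and 0.566% of all probe sets were. At an unadjusted p under 0.05, 0, 2 and 6 of the 35 passed, beside 7.38%, 4.77% and 12.5% of all probe sets.

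The factors were also compared with each other. Between MyoD and Myf5, 0 of the 35 genes were called by limma, where 19 probe sets, or 0.224%, were. Hoxb9 and Hoxd9 passed an unadjusted p under 0.05, both lower with MyoD, beside 3.71% of all probe sets, or 1.43% for lower values alone. Hoxd9 read 24.2, 17.6 and 36.1 with Myf5, above every MyoD array, and differed by −1.12 (adjusted p = 0.937). Between MyoD and myogenin, 8 of the 35 genes passed an unadjusted p under 0.05, beside 13.8% of all probe sets, 7.55% higher and 6.26% lower: Hoxa3, Hoxa7, Pbx3 and Lhx8 were higher with MyoD, and Hoxb8, Hoxb9, Hoxd9 and Prrx1 lower. Without MyoD 5 and hrGFP 5, 7 passed, beside 15.5% of all probe sets: Hoxb4 came in, and Hoxa7 and Pbx3 fell out.

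Of the 53 genes, 7 had more than 1 probe set, and these did not always move alike. The brightest Hoxa4 probe set ran from 113 to 368 and differed by 0.56 between myogenin and hrGFP, and the next one, which ran from 4.8 to 28.4, differed by −0.33. Without MyoD 5 and hrGFP 5 the brightest differed by −0.01. Both Hoxd8 probe sets passed, with differences of −0.05 and 0.14. Only 1 of the Hoxa6 probe sets passed, and none for Hoxd1 and Lhx9. Antisense transcripts were kept apart: Hoxa11os and Dlx6os2 passed the filter and were not called, and Dlx1as did not pass.

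Gene lists from the surroundings of the Hox genes held no called gene in any of the 6 comparisons. These were 26 other homeobox genes, 22 Polycomb and trithorax regulators, which keep Hox clusters silent or active, 9 genes of the retinoic acid pathway, which switches on Hox genes in the embryo, and 22 limb and mesenchyme regulators. Their median differences from hrGFP with myogenin were 0.13, 0.04, 0.25 and 0.05, and with MyoD 0.01, 0.08, −0.19 and −0.10. With Myf5 they were −0.09, 0.13, 0.29 and −0.09.

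The largest differences in these lists were as follows. En1, an engrailed gene of the midbrain and limb, read 224, 218 and 196 with myogenin and 133, 45.1 and 105 with hrGFP, a difference of 1.14 ± 0.25 (limma adjusted p = 0.108), and Hopx, an atypical homeobox gene, differed by 1.11. Among the chromatin regulators, Pcgf2 differed by 1.32 with myogenin, and by 0.38 in another of its probe sets. Men1 differed by 1.28 with Myf5, and by 0.91 without MyoD 5 and hrGFP 5. Rxrb, a nuclear receptor that pairs with retinoic acid receptors, read 219, 14.9 and 34.5 on the control arrays and 124 to 262 on the arrays of the factors. Its difference was 2.01 ± 0.57 with myogenin (adjusted p = 0.229). Rarg, a retinoic acid receptor, differed by 0.91 with Myf5. Grem1, an inhibitor of bone morphogenetic proteins, differed by 1.47 ± 1.29 with Myf5, where hrGFP 5 and MyoD 5 read 10.5 and 8.6 and the other arrays 240 to 501, and by −0.10 without those arrays. Zic1, a zinc finger gene, differed by −1.20 with myogenin.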

How the data were processed

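RNA from 12 samples was hybridized to 1-colour MG_U74Av2 arrays. The deposited values are MAS5 signal intensities, 1 per probe set, made by the authors. The submitters' processing notes name MAS5 without a version, and how the arrays were scaled was not stated. Of 12488 probe sets, 66 controls were removed. The others were named from the platform annotation: 10833 had 1 symbol, 396 several, and 1193 were not listed there.

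Signals were transformed to log2(signal + 6.33), the pseudocount being the 25th percentile of all signals, and quantile-normalized. A fold change on that scale understates the change of dim genes. Probe sets above 15.02 on at least 3 arrays, 8485 in all, were fitted with limma 3.58.1 (R 4.3.3; 1 mean per group, variance trend, 8 residual degrees of freedom), with Benjamini-Hochberg adjustment over all of them and an adjusted p under 0.05 as the threshold. The steps were tested on simulated data. The 6 pairs of groups and a moderated F test over the 4 groups were run. The number of arrays limits the precision.

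Deviations from the group means correlated between same-numbered arrays at 0.496, 0.394 and 0.827 for MyoD and hrGFP. For Myf5 and hrGFP the values were 0.122, 0.332 and 0.107, and for MyoD and Myf5 −0.01, 0.11 and 0.11. Deviations cancel within a group, and MyoD 5 and hrGFP 5 stood apart together. These values therefore cannot show whether the numbers in the titles pair the arrays. The main fit used no pairing, and the replicate block was run as an alternative.

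The genes given with their signals were chosen by rule: those called, the 3 largest rises and falls of each factor against hrGFP, the member of each family with the smallest F-test p, and those with more than 1 probe set. From each gene list, those called and the 2 with the largest change were named. Members and lists were chosen with earlier results of these data known. Alternatives covered the normalization, pseudocount, filter, batch, replicate block, variance prior, the groups fitted and each array left out. Promoter windows were matched by symbol.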

Additional observations from a re-analysis of the deposited data

How the results depend on the processing

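Hoxb9 decided each count that changed with the processing, except where named. For MyoD against myogenin, 1 gene of the 35 was called. The count was 0 without a pseudocount, with the stricter filter (which leaves Hoxb9 untested) or with the 2 groups fitted alone. Over all probe sets of the genes the count was 2, the second gene being Hoxb8, by its dimmer probe set. For the F test the count of 1 became 0 with median scaling, without a pseudocount, with the stricter filter, and without MyoD 5 and hrGFP 5. For myogenin against hrGFP the count of 0 became 1 without normalization, with the median signal as pseudocount, without a filter, and with a constant variance prior. For Myf5 against myogenin it became 1 (Prrx1) without MyoD 5 and hrGFP 5, and 3 (Hoxa7, Hoxb8 and Prrx1) with the 2 groups fitted alone, while the calls over all probe sets rose from 3 to 44 and 141. Leaving out single arrays gave counts of 0 to 1 for MyoD against myogenin, for the F test and for myogenin against hrGFP (1 without MyoD 5). The cause was not tested. MyoD against hrGFP, Myf5 against hrGFP and MyoD against Myf5 gave 0 under all 25 alternatives each. With the replicate block, 0 genes of the 35 were called in each of these 3 comparisons, and it changed no call. With batch 1 alone, 0 were called as well. For Hoxb9 the difference between MyoD and myogenin ranged from −3.18 to −0.94 over 20 alternatives, with adjusted p from 0.00937 to 0.156. The median difference of all probe sets between myogenin and hrGFP was 0.17 without normalization and −0.09 with median scaling. With quantile normalization it was −0.01. Dim probe sets limit what could be seen: 18 of the 53 genes were below the filter.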
